A study of Mus musculus with 32 samples.

Results

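The 10 genes described here build or directly report the circadian clock: Arntl (also called Bmal1), Clock, Per1, Per2, Per3, Cry1, Nr1d1, Nr1d2, Dbp and Tef. They were chosen by name, each symbol matched 1 row among the 54532 genes of the deposited expression table, and all 10 were measured in all 32 libraries. The libraries came from wild-type mice labelled C57/Bl6j that were kept on a 60% high-fat diet for 12 weeks and then received either vehicle or auranofin, a gold-containing drug first used for rheumatoid arthritis, at 1 mg per kg body weight 3 times a week for 4 weeks. The tissues were inguinal white fat (iWAT), which lies under the skin, epididymal white fat (eWAT), which lies in the abdomen, brown fat (BAT) and liver, and each gave 4 vehicle and 4 auranofin libraries, so all 8 groups share the strain, the genotype and the diet. The labels number the libraries 1 to 4 in each group without saying which came from 1 animal, and the time of day of tissue collection is not given in the sources used here. Since nothing states that the libraries of a group are separate animals, p-values measure only the spread between these libraries, which may be technical.

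The clock is a loop of transcription and delayed repression that runs in almost every cell. ARNTL and CLOCK form a pair that binds E-boxes and activates the Per and Cry genes, whose proteins return to the nucleus and repress that pair. The same pair activates Nr1d1 and Nr1d2, which encode the REV-ERB repressors that act on Arntl, and it activates Dbp and Tef, which encode factors of the PAR bZIP family that bind D-boxes and pass the rhythm on to metabolic genes. In liver and fat of mice the RNA of Arntl and the RNAs of Nr1d1, Dbp and Per3 are known to peak in different parts of the day.

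Letters of the elements named above, and of the element bound by REV-ERB proteins, were searched in the promoters of these genes as a description. Whether a match bears on how the genes varied between the libraries described below was not tested. RefSeq promoter windows on GRCm38.p6, which reach from 250 bases before to 50 bases after an annotated start, were found for 9 of the 10 genes, in 14 windows. Per2 had no entry. The D-box letters TTACGTAA or TTATGTAA were searched on both strands and occurred in 1.06% of 32851 windows of all genes. Among the 9 clock genes with a window Per3 alone held them, and held them 2 times, 205 and 158 bases before its start. The 250 bases before the start of Per3 (chr4:151044666-151044915, minus strand) are printed 5′ to 3′ with the D-boxes in capitals.
Per3: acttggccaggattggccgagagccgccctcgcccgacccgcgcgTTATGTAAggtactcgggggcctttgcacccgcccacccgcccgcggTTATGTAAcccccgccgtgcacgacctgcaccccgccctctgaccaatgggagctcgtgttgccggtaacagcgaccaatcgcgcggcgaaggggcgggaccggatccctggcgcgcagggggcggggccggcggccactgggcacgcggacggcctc

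The E-box CACGTG occurred in 7.15% of all windows and in the windows of 3 clock genes, Cry1, Per1 and Tef. Its variant CACGTT, which reads AACGTG on the other strand, occurred in 4.68% of all windows and in those of Cry1 and Nr1d1. The REV-ERB and ROR element, searched as TAGGTCA or TGGGTCA, occurred in 6.45% of all windows and, among the clock genes, in Arntl, 30 bases after 1 of its starts. The sites are printed 5′ to 3′ on the gene's strand, with 30 bases each and the element in capitals, to show which genes carry which element. The windows of Clock, Dbp and Nr1d2 held none of the letters searched. Shares of all genes are per window, and some clock genes have more than 1 window. A match of letters is a description of the window and not a measurement of binding. Both elements of Cry1, 60 and 79 bases before its start, are given on lines of their own.
Cry1, E-box (chr10:85185097-85185126, minus strand): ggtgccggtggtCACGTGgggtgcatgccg
Cry1, variant (chr10:85185116-85185145, minus strand): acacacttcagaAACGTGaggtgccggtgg
Per1, E-box (chr11:69098771-69098800, plus strand), 166 bases before a start: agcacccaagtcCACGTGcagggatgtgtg
Tef, E-box of its first window (chr15:81802534-81802563, plus strand), 127 bases before a start: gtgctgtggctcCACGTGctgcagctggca
Tef, E-box of its other window (chr15:81811264-81811293, plus strand), 138 bases before a start: cacctggcccagCACGTGtctacatcgttt
Nr1d1, variant (chr11:98775388-98775417, minus strand), 28 bases before its start: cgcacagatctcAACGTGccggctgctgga
Arntl, REV-ERB and ROR element (chr7:113207529-113207558, plus strand): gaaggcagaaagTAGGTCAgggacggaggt

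Levels are in FPKM, fragments scaled to gene length and a library size, as the authors deposited them. Library totals rebuilt from those values were 13606756 to 19205640 reads. The 10 genes were covered by 53 to 3533 reads per library, with the fewest for Dbp in BAT. The library sizes that the deposited values imply were not these totals. In liver vehicle library 1 the implied size was 13267136 against 18109130 reads, and in eWAT vehicle library 1 it was 24013795 against 17036845. Markers of each tissue fitted the labels: the sum of 4 hepatocyte markers was 58180 to 87131 FPKM in liver and at most 475 in any fat library, and the sum of 4 brown adipocyte markers was 3717 to 7908 FPKM in BAT and at most 47.8 in white fat (233 to 734 in liver). Some libraries stood apart. The 5 macrophage markers, none at 0, summed to 3022 and 2868 FPKM in eWAT vehicle libraries 1 and 2, against 1215 and 1237 in the other eWAT vehicle libraries and 596 to 1563 with auranofin, and the 5 adipocyte markers summed to 1990 and 2690 FPKM there against 4263 and 4544. In iWAT auranofin library 2 the adipocyte markers summed to 9198 FPKM, while the remaining 3 auranofin libraries had 5182 to 5517 and the vehicle libraries 7618 to 8235. Skeletal muscle markers reached 1161 and 664 FPKM in iWAT libraries 4 of vehicle and auranofin and, in BAT, 2112 and 864 FPKM in auranofin libraries 2 and 4 and 519 in vehicle library 4. In BAT all 5 macrophage markers had a lower mean with auranofin and an unadjusted p under 0.05, and their sum was 113 to 234 FPKM with vehicle and 55.2 to 137 with auranofin. In liver all 5 had a higher mean with auranofin, 3 with an unadjusted p under 0.05, and their sum was 49.7 to 71.0 FPKM with vehicle and 62.4 to 103 with auranofin. The 4 fibroblast and matrix markers summed to 81.6 to 145 FPKM in BAT with vehicle and 41.8 to 81.7 with auranofin. In eWAT they summed to 372 to 776 FPKM with vehicle and 256 to 330 with auranofin, while in iWAT and liver the ranges overlapped. The part of these markers in the results on the clock genes was not tested. In bulk tissue, fewer cells of a type and less RNA per cell cannot be told apart.

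In vehicle mice, some clock genes had much the same level in all 4 tissues, 6 had their highest mean in liver or BAT with at least 2 tissue pairs past the threshold, and Per3 was lowest in liver. Arntl, Clock and Per1 differed by at most 1.45 times between the highest and the lowest tissue mean, and Dbp differed by 4.44 times, Per2 by 3.29 times and Tef by 3.08 times. Tests between tissues used limma on log2(FPKM + 1) in 1 fit of the 16 vehicle libraries, with p-values adjusted over all 14339 genes by the Benjamini-Hochberg method and 0.05 as the threshold. Of 60 differences (10 genes in 6 pairs of tissues) 26 passed. A log2 difference is on the log2(FPKM + 1) scale, which understates differences of low genes.

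**Figure D1:**
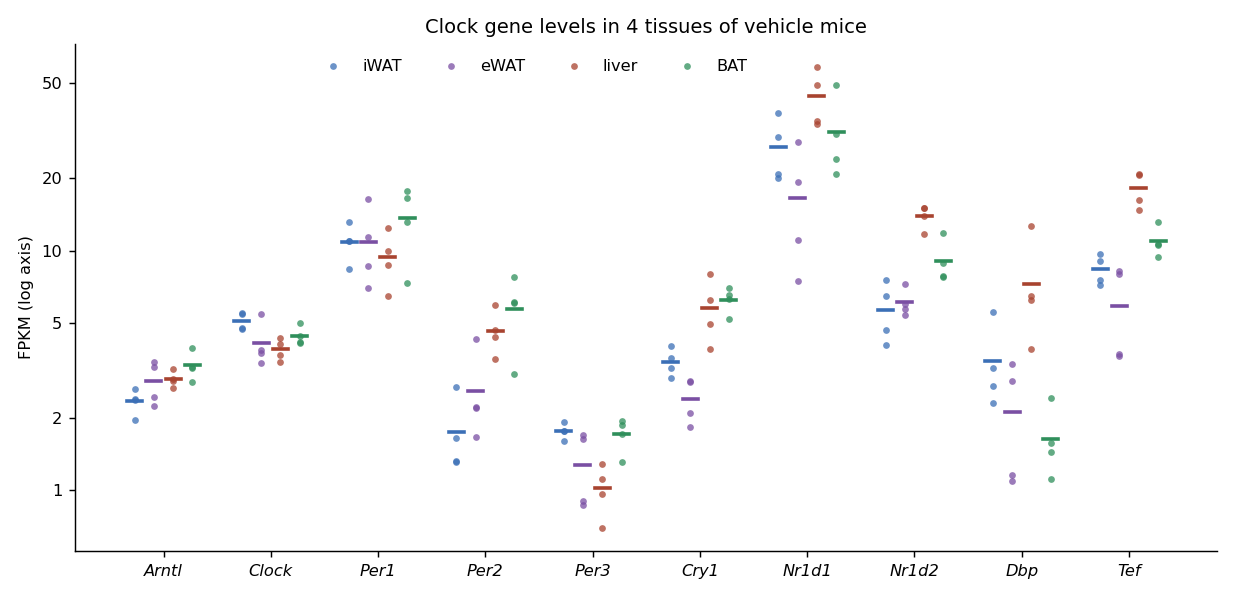
FPKM (log axis) of the 10 clock genes in the vehicle libraries of iWAT, eWAT, liver and BAT; each point is 1 library and each bar the mean of 4. Arntl, Clock and Per1 lie at much the same height in all tissues, while Nr1d2, Dbp and Tef are highest in liver and Per2 and Cry1 are higher in liver and BAT than in white fat.

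The activators of the loop varied least between tissues. Arntl (ENSMUSG00000055116, chr7:113207465-113314126 on mm10, plus strand) had 3.32 ± 0.458 FPKM in BAT, 2.90 ± 0.221 in liver, 2.85 ± 0.578 in eWAT and 2.35 ± 0.281 in iWAT (SD, n = 4 each). Of its 6 tissue pairs 1 passed: Arntl was lower in iWAT than in BAT (log2 difference -0.37, SE 0.11, limma adjusted p = 0.0130). Clock (ENSMUSG00000029238, chr5:76209868-76304792, minus strand), the partner of Arntl and a protein with histone acetyltransferase activity, was highest in iWAT, where Arntl was lowest, and ran from 5.11 ± 0.439 FPKM in iWAT through 4.41 ± 0.398 in BAT and 4.11 ± 0.911 in eWAT to 3.87 ± 0.392 in liver. A few genes of low level also overlap Arntl and Tef (antisense genes) and Clock and Per3 (on the same strand), and shared reads could count for either. Only its ends differed, with Clock lower in liver than in iWAT (log2 difference -0.33, SE 0.11, limma adjusted p = 0.0169). No neighbours in either order differed past the threshold.

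The repressors of the loop did not share 1 pattern. Per1 (ENSMUSG00000020893, chr11:69095217-69109960, plus strand), which also responds quickly to hormones and cAMP, had 13.6 ± 4.63 FPKM in BAT, 10.9 ± 1.96 in iWAT, 10.9 ± 4.08 in eWAT and 9.39 ± 2.48 in liver, and none of its 6 pairs passed. Per2 (ENSMUSG00000055866, chr1:91415982-91459324, minus strand) was high in BAT (5.73 ± 1.95 FPKM) and liver (4.62 ± 0.999) and low in eWAT (2.6 ± 1.15) and iWAT (1.74 ± 0.651). Each of the 4 differences of Per2 between a white depot and liver or BAT passed, the largest being 3.29 times between BAT and iWAT (log2 difference of iWAT from BAT -1.27, SE 0.24, limma adjusted p = 0.000499). Per3 (ENSMUSG00000028957, chr4:151003652-151044665, minus strand) had 1.77 ± 0.134 FPKM in iWAT, 1.71 ± 0.280 in BAT, 1.28 ± 0.452 in eWAT and 1.02 ± 0.253 in liver, and it was lower in liver than in iWAT (limma adjusted p = 0.00614) and BAT (0.0113). Cry1 (ENSMUSG00000020038, chr10:85131700-85185064, minus strand) followed Per2, with 6.25 ± 0.756 FPKM in BAT, 5.76 ± 1.76 in liver, 3.44 ± 0.454 in iWAT and 2.41 ± 0.517 in eWAT. Its 4 differences between a white depot and liver or BAT passed as well, and the largest was 2.59 times (log2 difference of eWAT from BAT -1.09, SE 0.16, limma adjusted p = 3.98e-05).

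The REV-ERB genes had their highest means in liver. Nr1d1 (ENSMUSG00000020889, chr11:98767932-98775333, minus strand) was the most abundant of the 10 genes in each tissue, with 43.9 ± 11.8 FPKM in liver, 31.1 ± 12.7 in BAT, 27.0 ± 8.16 in iWAT and 16.5 ± 9.27 in eWAT. It was lower in eWAT than in liver (2.65 times, limma adjusted p = 0.00149) and than in BAT (1.88 times, 0.0326). Liver did not differ past the threshold from BAT (limma adjusted p = 0.213) or iWAT (0.0952). Nr1d1 overlaps Thra on the opposite strand, and the libraries keep no strand, so reads of the shared part cannot be told apart. Thra itself was lowest in liver, at 6.13 ± 0.860 FPKM. Nr1d2 (ENSMUSG00000021775, chr14:18204054-18239127, minus strand) separated the tissues most often, with 5 of 6 pairs past the threshold. It had 13.9 ± 1.52 FPKM in liver, 9.09 ± 1.93 in BAT, 6.08 ± 0.814 in eWAT and 5.68 ± 1.63 in iWAT, and only the white depots did not differ past the threshold (limma adjusted p = 0.623).

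The PAR bZIP outputs were also highest in liver, but they differed in BAT. Dbp (ENSMUSG00000059824, chr7:45705088-45710203, plus strand) had 7.29 ± 3.74 FPKM in liver, 3.46 ± 1.45 in iWAT, 2.12 ± 1.16 in eWAT and 1.64 ± 0.556 in BAT. In liver the 4 vehicle libraries had 3.88, 6.46, 6.20 and 12.6 FPKM of Dbp and in BAT 1.58, 1.12, 1.44 and 2.42, so these groups did not overlap (log2 difference 1.57, SE 0.31, limma adjusted p = 0.000368). Dbp overlaps Sphk2 on the opposite strand, and Sphk2 was likewise high in liver, with 27.8 ± 4.40 FPKM against 5.99 ± 1.21 in BAT, and its part in the Dbp values was not tested. Tef (ENSMUSG00000022389, chr15:81802421-81826863, plus strand) had 18.2 ± 3.13 FPKM in liver, 11 ± 1.60 in BAT, 8.36 ± 1.2 in iWAT and 5.89 ± 2.55 in eWAT. Tef was 3.08 times higher in liver than in eWAT (log2 difference 1.54, SE 0.22, limma adjusted p = 9.69e-06), and unlike Dbp it was higher in BAT than in eWAT (1.86 times, limma adjusted p = 0.00319).

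By pairs of tissues, the counts of clock genes that passed are given beside the share of all genes. With only 10 genes, the gaps between count and share were not tested. Between liver and eWAT 6 of 10 passed, all higher in liver, against 71.9% of all genes. Between liver and iWAT 7 of 10 passed, with Per2, Cry1, Nr1d2, Dbp and Tef higher in liver and Clock and Per3 lower, against 69.5% of all genes. Liver and BAT differed in 4 (Nr1d2, Dbp and Tef higher in liver, Per3 lower), against 63.1%. In eWAT 5 were lower than in BAT (Per2, Cry1, Nr1d1, Nr1d2 and Tef), against 53.0%, and in iWAT 4 were lower than in BAT (Arntl, Per2, Cry1 and Nr1d2), against 50.1%. The white depots differed in 0 of 10 by limma, against 46.2% of all genes. At an unadjusted p under 0.05 stood 5 of 10, a cut that at least those 46.2% of all genes also pass. By voom on the rebuilt reads 2 clock genes differed, among 6828 of all 14339 genes.

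The direction of tissue differences depends on what each library is scaled to. Scaling to TPM (each library to the same sum of length-corrected values) moved the median difference of all genes between liver and eWAT from 0.037 to -0.985, and by -0.626 between liver and iWAT, 0.683 between eWAT and BAT, 0.343 between eWAT and iWAT, 0.300 between iWAT and BAT and -0.303 between liver and BAT. On that scale the clock gene calls were 0 higher and 4 lower in liver than in eWAT (2094 and 9775 of all 14339 genes). Liver gave 1 and 4 against iWAT (2756 and 8159 of all genes), and 1 and 5 against BAT (3057 and 6301). In eWAT 3 were higher and 1 lower than in BAT (8957 and 1298). In iWAT 2 were higher and 1 lower than in BAT (6002 and 1936). Between the white depots 3 were higher and 0 lower in eWAT (6150 and 1374). Taken relative to the median of all genes, all 26 called differences kept their side on both scales. That agreement was largely set by the calculation and is no separate check. TPM multiplies each library by a constant, and subtracting the median of all genes largely removes it again. Per2, Cry1, Nr1d2 and Tef, for instance, lay 0.70, 1.01, 0.98 and 1.47 above the median gene between liver and eWAT on the TPM scale. On the FPKM scale, eWAT vehicle libraries 1 and 2 were also left out, a choice made after seeing the data. Without them, 3 clock genes passed between eWAT and BAT, among 7364 genes in all. They were Cry1, Nr1d2 and Arntl (-0.36, limma adjusted p = 0.0126), and those lost were Per2 (-0.65, 0.0792), Nr1d1 (-0.32, 0.465) and Tef (-0.39, 0.0568). Between liver and eWAT, Cry1, Nr1d1, Nr1d2, Dbp and Tef stayed higher in liver and Per2 was lost (0.43, limma adjusted p = 0.205). Per3 was gained, lower in liver (-0.41, limma adjusted p = 0.00860). Between eWAT and iWAT, Clock was then lower in eWAT (-0.42, limma adjusted p = 0.00436), among 6033 genes in all. In the auranofin libraries 0 clock genes passed between liver and BAT by limma (61.9% of all genes), with 0 at an unadjusted p under 0.05, and Cry1 and Nr1d2 passed between iWAT and BAT (47.5% of all genes). Dbp passed in no tissue pair of the auranofin libraries. Per2 passed there only between eWAT and BAT, lower in eWAT (-0.91, limma adjusted p = 0.0171). Whether these results differ between treatments was not tested.

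The 10 genes differed in how much the libraries of 1 group varied. The coefficient of variation (SD as a percentage of the mean) of Clock had a median of 10.8% over the 8 groups, and that of Nr1d2 17.4%. The median for Dbp was 46.6%, with a range from 33.3% to 103%, and in 1 group its highest library was 7.83 times its lowest. Per2 (35.7%) and Per3 (34.7%) also had high medians. Over all genes the median coefficient of variation was between 12.6% (liver, vehicle) and 26.8% (eWAT, vehicle), so Dbp in every group varied more than the median gene of any group.

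The next comparison asked whether 4 weeks of auranofin moved the clock genes within each tissue. Of the 10 genes, 0 passed in any tissue by limma, and voom on the rebuilt reads likewise called 0 in each. The share of all genes called was 0.0230% for BAT (3 of 13067) and 0% for iWAT, 0% for eWAT and 0% for liver, so these groups of 4 gave calls for almost no gene. An unadjusted p under 0.05 was reached by 1 of 10 in iWAT (Per2; 22.0% of all genes), 4 in eWAT (Arntl, Nr1d1, Dbp and Tef; 11.4%), 0 in liver (6.04%) and 4 in BAT (Per3, Nr1d2, Dbp and Tef; 11.2%). With voom the counts were 1, 5, 0 and 4, while the shares of all genes just given are those of limma. The vehicle and auranofin libraries did not overlap for 1 clock gene in eWAT, Arntl (6.95% of all genes), and for 0 in iWAT (5.18%), liver (3.72%) and BAT (5.33%). A missed threshold does not show that the levels were equal.

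The estimates had the same sign in all 4 tissues for each of the 10 genes. Arntl, Clock and Cry1 had lower means with auranofin, and Per1, Per2, Per3, Nr1d1, Nr1d2, Dbp and Tef had higher ones. The median log2 difference of the 10 genes was 0.33 for BAT, 0.32 for iWAT, 0.26 for eWAT and 0.20 for liver, while the median of all genes was between -0.017 and 0.022. The tissues may come from the same animals, so 4 tissues with 1 sign are not 4 independent observations. On the TPM scale the median of all genes moved by 0.250 in iWAT, -0.145 in eWAT and -0.119 in BAT. Arntl, Clock and Cry1 in iWAT then became positive (0.081, 0.16 and 0.11). Relative to the median gene all 40 estimates kept their sign, which, as for the tissue pairs, was largely set by the calculation.

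**Figure D2:**
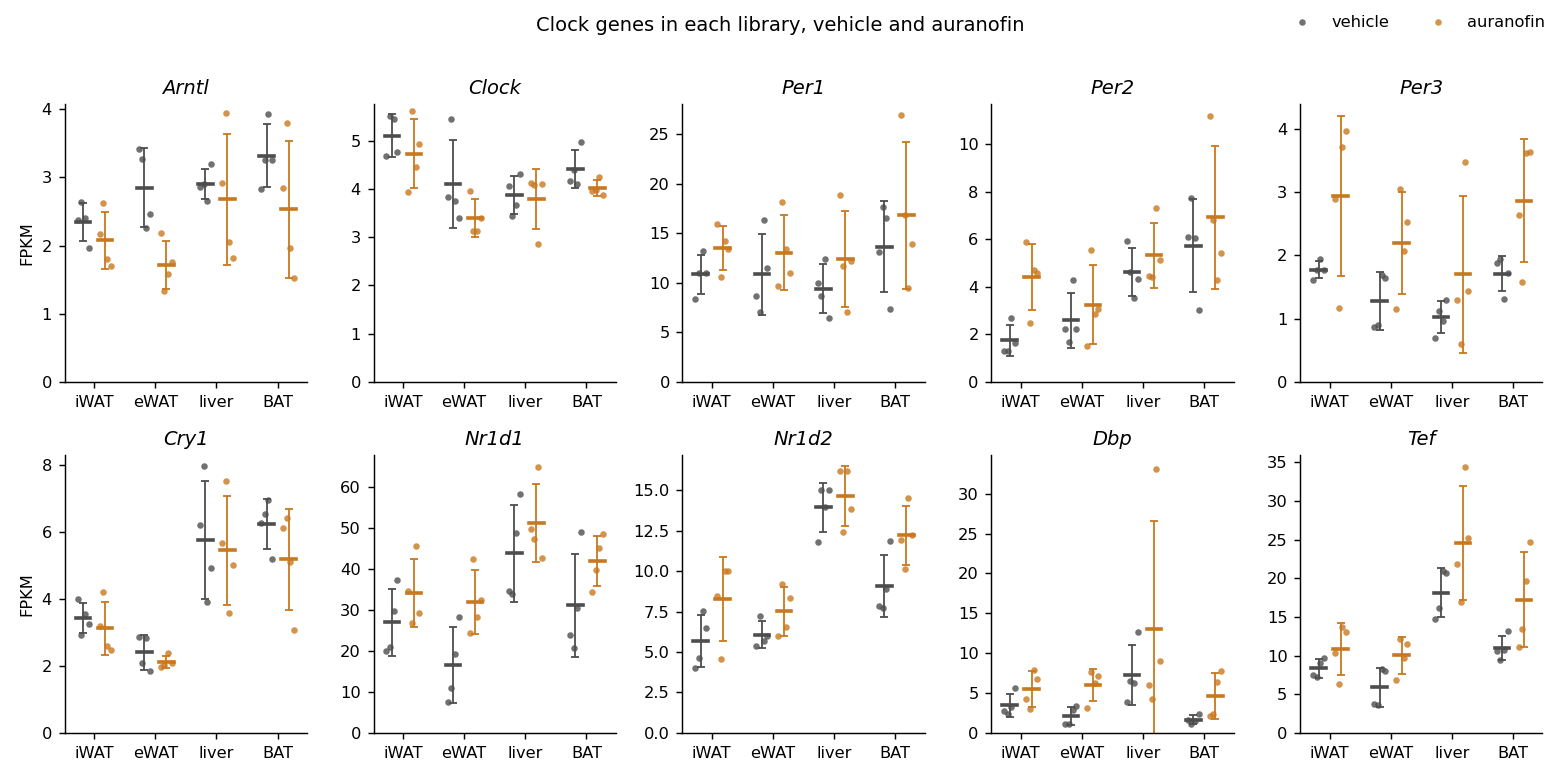
FPKM of each clock gene in each library (points, in order of library number), with the group mean (thick bar) and SD (thin bar; n = 4), for vehicle (grey) and auranofin (orange); the SD bar of Dbp in liver is longer than its mean and is cut at 0. The groups overlap in every panel and tissue except Arntl in eWAT.

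Among the activators, Arntl in eWAT came closest to a separation. It had 3.42, 3.27, 2.25 and 2.46 FPKM in vehicle libraries 1 to 4 and 2.18, 1.33, 1.59 and 1.75 in auranofin libraries 1 to 4. All 4 auranofin libraries lay below all vehicle libraries, although the nearest, 2.18 and 2.25, were close (log2 difference -0.50, SE 0.15, limma adjusted p = 0.429). Vehicle libraries 1 and 2, with the highest Arntl, were the ones with high macrophage markers, and without both the difference was -0.32. In BAT, Arntl had 2.83, 3.25, 3.94 and 3.26 FPKM with vehicle and 2.85, 3.80, 1.96 and 1.52 with auranofin, where libraries 3 and 4 were below every vehicle library and library 2 was above all but 1. In liver, Arntl was 2.66 to 3.20 FPKM with vehicle and spread to both sides with auranofin, at 2.91, 3.94, 2.05 and 1.82. For Clock the log2 difference was between -0.20 (eWAT) and -0.032 (liver).

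Of the repressors, Per2 in iWAT had the lowest unadjusted p of the 10 genes in any tissue (0.00196). It had 1.32, 1.31, 2.69 and 1.65 FPKM with vehicle and 5.87, 2.49, 4.70 and 4.58 with auranofin, and 3 of the 4 auranofin libraries lay above every vehicle library (log2 difference 0.97, SE 0.22, limma adjusted p = 0.204). Auranofin library 2, the lowest, is the one with high adipocyte markers. Without it, 4 clock genes passed in iWAT among 4819 genes in all (36.4% of all genes). They were Per2 (1.16, limma adjusted p = 0.00256), Per3 (0.70, 0.00253), Nr1d2 (0.68, 0.0217) and Tef (0.52, 0.0180). Library weights that lower the influence of variable libraries gave 8 clock genes in iWAT among 6095 genes (46.3% of all genes). Elsewhere the log2 difference of Per2 was 0.22 in BAT, 0.17 in liver and 0.21 in eWAT, where it became -0.037 without vehicle libraries 1 and 2.

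For Per3 the auranofin mean divided by the vehicle mean was 1.65 for iWAT, 1.72 for eWAT and 1.67 for both liver and BAT. In BAT it had 1.88, 1.94, 1.32 and 1.72 FPKM with vehicle and 2.64, 1.58, 3.61 and 3.64 with auranofin (log2 difference 0.48, SE 0.19, limma adjusted p = 0.404). In liver the high mean came mostly from auranofin library 3, at 3.47 FPKM against 1.30, 0.592 and 1.44 in the others, and without it the log2 difference of Per3 went from 0.32 to 0.048. In eWAT that of Per3 went from 0.47 to 0.22 without vehicle libraries 1 and 2. The mean of Per1 with auranofin was 1.2 to 1.32 times that with vehicle, but in eWAT the log2 difference of 0.27 became -0.099 without vehicle libraries 1 and 2 and -0.17 with library weights. The spread of Per1 was wide, as in BAT, where auranofin library 1 reached 27.0 FPKM and library 3 had 9.48. Cry1 had ratios from 0.830 in BAT to 0.947 in liver.

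The REV-ERB genes had higher means with auranofin in each tissue. In eWAT, Nr1d1 had 7.48, 11.0, 19.3 and 28.3 FPKM with vehicle and 24.3, 42.5, 28.3 and 32.4 with auranofin. Vehicle libraries 1 and 2 were the lowest of the 8 and vehicle library 4 lay inside the auranofin range (log2 difference 1.04, SE 0.37, limma adjusted p = 0.429). A single fit of all 32 libraries called this difference (limma adjusted p = 0.0360), as the only clock gene in eWAT and among 1008 genes in all (6.99%), while without vehicle libraries 1 and 2 it was 0.40. Thra, on the other strand, had 11.0 ± 4.20 FPKM with vehicle and 15.8 ± 1.43 with auranofin in eWAT, and its part in the Nr1d1 values was not tested. In BAT, Nr1d2 had 7.86, 7.74, 8.87 and 11.9 FPKM with vehicle and 11.9, 10.1, 14.5 and 12.2 with auranofin, each auranofin library being above the vehicle mean of 9.09 (log2 difference 0.40, SE 0.15, limma adjusted p = 0.385). In liver the log2 difference of Nr1d2 was 0.067.

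Among the outputs, Dbp had the largest estimate of the 10 genes in eWAT, liver and BAT, and Per2 in iWAT. Dbp in eWAT had 1.10, 1.16, 2.86 and 3.35 FPKM with vehicle and 3.15, 7.64, 6.28 and 7.14 with auranofin, and 3 of the 4 auranofin libraries lay above all vehicle libraries (2.86 times, log2 difference 1.2, SE 0.31, limma adjusted p = 0.429). Without vehicle libraries 1 and 2 its log2 difference was 0.73. In BAT it had 1.58, 1.12, 1.44 and 2.42 FPKM with vehicle and 2.11, 2.37, 6.32 and 7.74 with auranofin (2.83 times, log2 difference 0.97, SE 0.34, limma adjusted p = 0.361), so libraries 3 and 4 carried the difference and libraries 1 and 2 lay within the vehicle range. In iWAT the values were 2.73, 2.32, 3.23 and 5.57 with vehicle and 4.28, 2.94, 7.90 and 6.75 with auranofin, again with libraries 3 and 4 highest. In liver 1 library decided the sign: auranofin library 3 had 33.1 FPKM of Dbp against 5.95, 4.23 and 9.06 in the others, and without it the log2 difference went from 0.45 to -0.11.

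Tef had smaller differences than Dbp. In eWAT it had 3.72, 3.65, 8.25 and 7.95 FPKM with vehicle and 6.84, 12.2, 9.67 and 11.5 with auranofin (1.70 times, log2 difference 0.73, SE 0.28, limma adjusted p = 0.429), and without vehicle libraries 1 and 2 the difference was 0.25. In BAT it had 10.6, 9.42, 10.7 and 13.2 with vehicle and 11.1, 13.5, 19.6 and 24.7 with auranofin (1.57 times, limma adjusted p = 0.417). In liver Tef had 14.8, 16.2, 20.9 and 20.7 FPKM with vehicle and 21.8, 16.9, 34.3 and 25.2 with auranofin, 3 of 4 above every vehicle library, and in iWAT the ratio was 1.30.

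**Figure D3:**
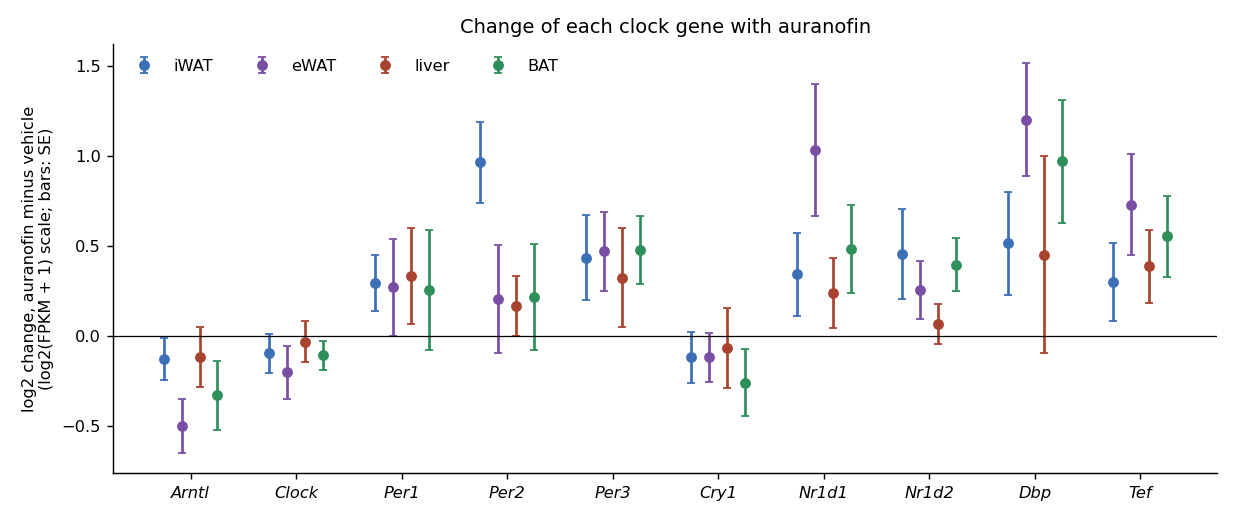
Log2 difference of auranofin from vehicle (log2(FPKM + 1) scale) for each clock gene in iWAT, eWAT, liver and BAT; points are limma estimates and bars their SE. Arntl, Clock and Cry1 lie below 0 and the other 7 genes above 0 in each tissue, and none passed the adjusted threshold.

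Whether the response differed between tissues was tested directly. The difference of eWAT from iWAT, of eWAT from BAT and of the liver from the mean of the 3 fat depots gave 0 of 10 clock genes by limma and by voom, with 0% of all genes called in each. The difference of iWAT from BAT also gave 0 of 10 by both, with 0.0224% of all genes called by limma. At an unadjusted p under 0.05 stood 0 of 10 in each of the 4 tests by limma. The lowest unadjusted limma p of a clock gene was 0.0659, 0.258, 0.175 and 0.0787 in the order named above. By voom 1 stood under 0.05 between iWAT and BAT and 0 in the others. No share of all genes at that cut stands beside these counts. The lowest limma adjusted p of a clock gene was 0.237, 0.804, 0.874 and 0.265 in that order.

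The libraries of 1 group differed from each other along a line on which Arntl and the outputs lay at opposite ends. Likeness was measured as Pearson's r of each gene's deviations from its group mean (log2(FPKM + 1)) over the 32 libraries, with group differences thus removed. Such values describe libraries that share animals or depth to an unknown extent, and they are given with no p. Dbp was most like Tef (r = 0.877) and Per3 (0.847), and Nr1d1 was like Tef (0.763). Arntl was like Cry1 (0.606) and unlike Tef (-0.778), Per3 (-0.774) and Dbp (-0.713). Per1 and Per2 were like each other (0.637), and Per1 was near 0 with Arntl (0.0082) and Tef (-0.025).

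**Figure D4:**
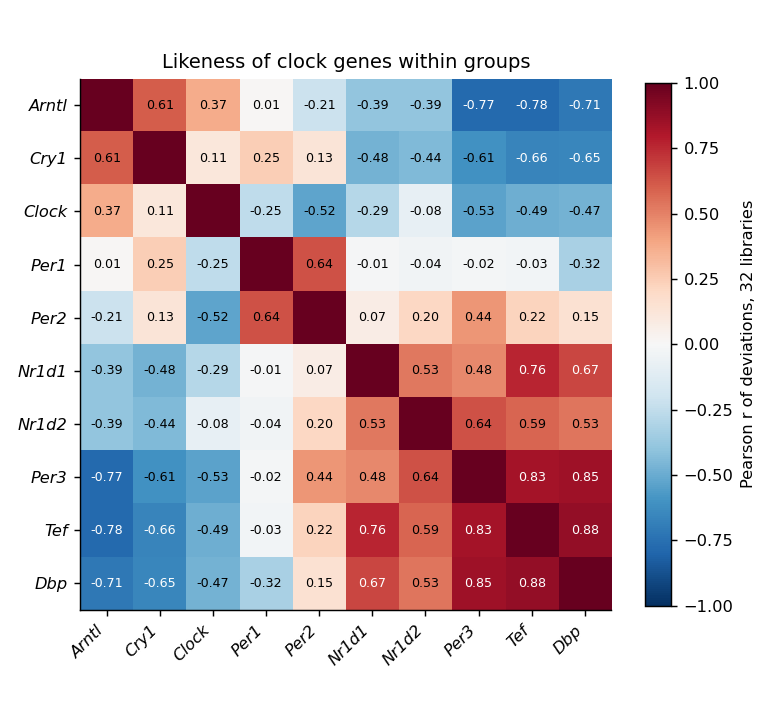
Pearson's r between the 10 clock genes, from deviations from the group mean over 32 libraries (8 groups of 4); red is positive and blue negative. Arntl and Cry1 form the positive corner at the upper left, Nr1d1, Nr1d2, Per3, Tef and Dbp the one at the lower right, and Per1 and Per2 a pair between them.

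These relations differed in how evenly they held. For Dbp and Tef, r was 0.832 in the 16 vehicle libraries and 0.905 in the 16 auranofin libraries, and between 0.901 and 0.980 in each tissue (8 libraries). For Arntl and Dbp, r was -0.462 with vehicle and -0.794 with auranofin, from -0.957 in iWAT to -0.536 in liver, and -0.668 over 30 libraries without the 2 farthest from the median of Arntl (Spearman's rho over all 32 was -0.741). Arntl and Cry1 were related mainly in auranofin libraries (0.815 against 0.128 with vehicle), and in eWAT r was -0.00020. Per1 and Per2 had r of 0.896 in iWAT, 0.894 in eWAT and 0.979 in BAT but -0.620 in liver. Per1 and Dbp had opposite signs in white fat (0.369 and 0.772) and in liver and BAT (-0.772 and -0.781). No difference between these values was tested.

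**Figure D5:**
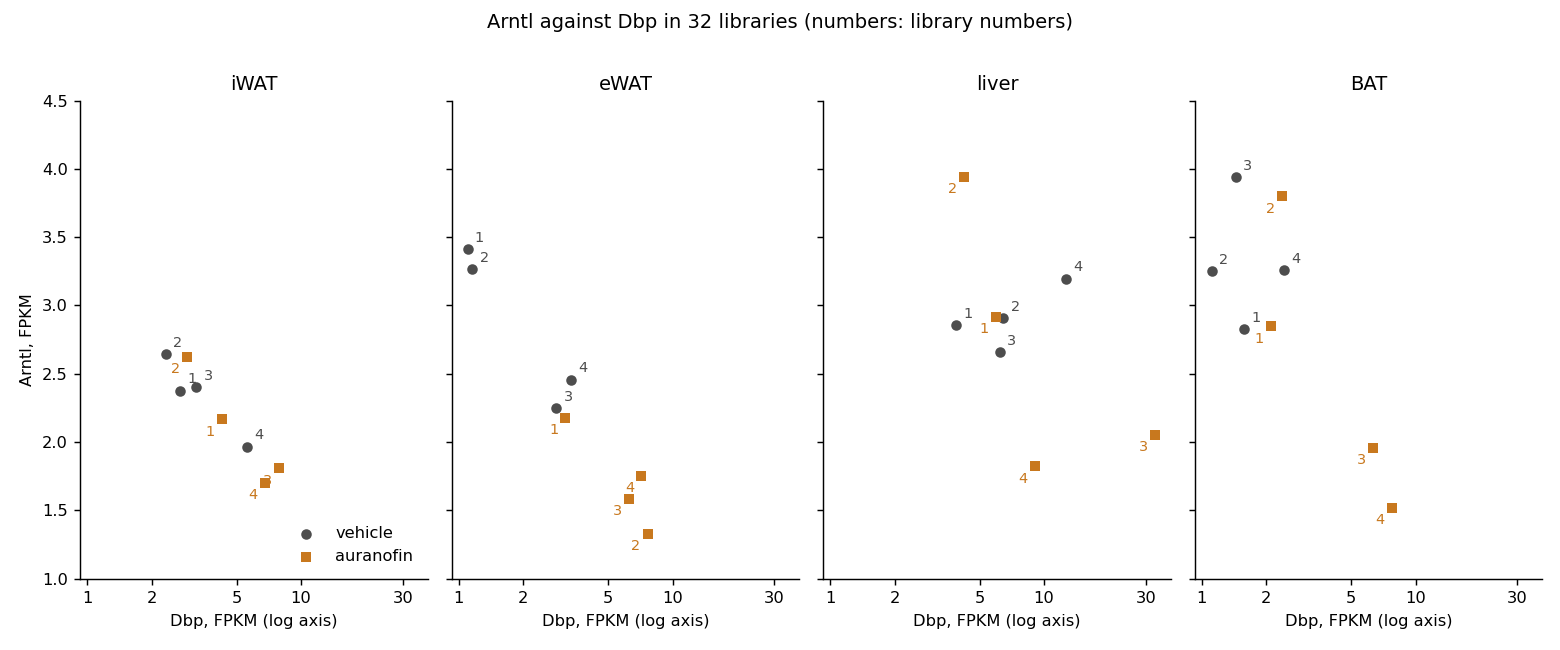
Arntl (FPKM) against Dbp (FPKM, log axis) in each library of iWAT, eWAT, liver and BAT, with vehicle as grey circles and auranofin as orange squares, numbered by library. In white fat the points fall from high Arntl with low Dbp to low Arntl with high Dbp, and auranofin libraries 3 and 4 lie below every vehicle library on Arntl in each tissue.

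Libraries with the same number in different tissues often lay on the same side of this line. As a balance, log2(Arntl + 1) minus log2(Dbp + 1) was taken in each library and set against its group mean. Auranofin libraries 3 and 4 and vehicle library 4 were below their group mean in 4 of 4 tissues, and auranofin library 1 and vehicle library 2 were above it in 4 of 4. Auranofin library 2 was above in iWAT, liver and BAT, by 0.89, 1.47 and 1.08, and below in eWAT, by -0.56. Vehicle libraries 1 and 3 were each above in 3 of 4. The labels do not say that a shared number marks 1 animal, and the sharing of sides was not tested. The median balance was lower with auranofin in each tissue, at -1.13 against -0.23 in iWAT, -1.53 against 0.37 in eWAT, -1.33 against -0.95 in liver and -0.50 against 0.79 in BAT. The groups overlapped in iWAT, liver and BAT, and in eWAT they did not, with -1.89 to -0.38 against -0.33 to 1.07.

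Over 8544 genes compared, the genes most like Arntl were Dtx4 (r = 0.836), Ccng2 (0.809), Map3k20 (0.770), Morf4l2 (0.749) and Nfil3 (0.731). Nfil3 encodes a bZIP repressor that competes with DBP and TEF for D-boxes. The genes most unlike Arntl were Zfp772 (-0.792), Tef, Per3, Dbp and Slc22a5 (-0.707), so 3 of the 5 were clock genes. Next to Tef and Per3, the genes most like Dbp were Mppe1 (0.790), Zkscan5 (0.775) and Dffb (0.743), and the most unlike were Bag3 (-0.766), P4ha1 (-0.756), Coq10b (-0.751), Ndel1 (-0.750) and Crem (-0.724).

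Some clock genes outside the 10 had very unlike levels in white fat and in liver or BAT. In vehicle libraries Nfil3 had 42.6 ± 15.2 FPKM in BAT, 31.5 ± 5.05 in liver, 9.57 ± 2.46 in iWAT and 7.02 ± 2.0 in eWAT. Hlf, the other PAR bZIP gene, had 11.2 ± 1.39 FPKM in liver, 4.09 ± 1.14 in BAT, 1.2 ± 0.496 in iWAT and 0.571 ± 0.286 in eWAT. The E-box repressors divided: Bhlhe40 had 28.8 ± 3.34 FPKM in liver and 22.3 ± 4.15 in BAT against 4.44 ± 0.961 and 5.56 ± 1.81 in iWAT and eWAT, while Bhlhe41 was at 0.141 ± 0.0899 in liver and 1.11 to 2.15 in the fat depots. Cry2 was between 5.56 and 9.17 FPKM and Rora between 1.56 and 6.08, and Ciart (0.305 to 1.87) and Npas2, which can replace Clock (0.338 to 1.45), were low in each tissue. These levels are descriptions, without a test.

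With auranofin, 0 of 7 tested genes of this list of 10 passed in iWAT and 0 of 8 each in eWAT, liver and BAT by limma, and 0, 3, 0 and 1 had an unadjusted p under 0.05 (22.0%, 11.4%, 6.04% and 11.2% of all genes). Those in eWAT, whose groups also did not overlap (6.95% of all genes), included Nfil3 (7.02 ± 2.0 FPKM with vehicle, 3.95 ± 0.162 with auranofin, log2 difference -0.66, limma adjusted p = 0.429) and Npas2 (1.45 ± 0.558 and 0.667 ± 0.119, -0.53). Vehicle libraries 1 and 2, with high macrophage markers, were highest for both. Vehicle libraries 1 to 4 had 9.43, 7.71, 6.15 and 4.79 FPKM of Nfil3 and 1.79, 2.03, 0.808 and 1.18 of Npas2. The highest auranofin library of Npas2 was close, at 0.778. Nfil3 in BAT was split like Arntl, with 59.7, 51.6, 16.1 and 13 FPKM in auranofin libraries 1 to 4. In BAT, Bhlhe41 had 1.44 ± 0.243 FPKM with vehicle and 1.98 ± 0.253 with auranofin (limma adjusted p = 0.376).

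Lists of genes around the clock gave 0 calls in each tissue by limma. Their counts at an unadjusted p under 0.05 stand beside shares of all genes of 22.0% (iWAT), 11.4% (eWAT), 6.04% (liver) and 11.2% (BAT). Of 15 kinases, phosphatases and ubiquitin ligases that act on clock proteins, 14, 14, 15 and 14 were tested in iWAT, eWAT, liver and BAT, with medians of 0.046, -0.090, -0.049 and -0.033 and 1, 0, 1 and 1 at an unadjusted p under 0.05. Of 30 rhythmic output genes 25, 27, 29 and 24 were tested, with medians of -0.10, -0.051, 0.0073 and -0.018 and 4, 6, 2 and 6 under 0.05. Klf15, a regulator of amino acid and lipid metabolism that this list shares with the glucocorticoid list, was 9.86 ± 5.86 FPKM with vehicle and 21.5 ± 6.87 with auranofin in eWAT and 7.49 ± 1.72 and 12.4 ± 2.64 in BAT. Noct, a phosphatase of NADP cofactors with a strong daily rhythm, was 6.10 ± 0.551 and 4.21 ± 0.549 in eWAT and 16.5 ± 4.16 and 10.8 ± 2.64 in BAT. Glucocorticoid-responsive genes had medians of 0.18, 0.090, 0.045 and 0.0012 with 2, 2, 0 and 4 of 14, 15, 15 and 14 under 0.05.

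Immediate-early genes of the CREB and SRF pathways, a class to which Per1 also responds, had estimates below 0 in BAT for 17 of 18 (median -0.47, against 0.022 for all genes) and 7 had an unadjusted p under 0.05 (11.2% of all genes). Arc had 7.96 ± 3.85 FPKM with vehicle and 1.56 ± 1.96 with auranofin (log2 difference -1.94, limma adjusted p = 0.254), Junb 22.1 ± 7.75 and 10.4 ± 3.43, Egr1 13.8 ± 4.14 and 6.13 ± 4.48 and Fosb 11.0 ± 8.23 and 2.67 ± 3.65. Per1 and Per2 in BAT had estimates above 0 in the same libraries. In iWAT 11 of 15 were above 0 (median 0.20), in eWAT 6 of 15 (-0.030) and in liver 4 of 12 (-0.022). Temperature-responsive genes had medians of -0.094, -0.24, -0.079 and -0.14 in iWAT, eWAT, liver and BAT. Of them 3 of 9, 0 of 9, 0 of 8 and 0 of 9 had an unadjusted p under 0.05 (22.0%, 11.4%, 6.04% and 11.2% of all genes).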

How the data were processed

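RNA of 32 libraries was made with a kit that keeps no strand, per the labels' protocols. STAR 2.6.1d, featureCounts 1.5.0-p3, CASAVA, DESeq2 1.20.0 and the mm10 build are given in the submitters' processing notes, without their roles. The authors deposited FPKM values, which are normalised to gene length and to a library size that differs from the read total. Whole reads were recovered within 0.1 read for 100% of values. Coordinates are those of the deposited table. From these values, limma 3.58.1 (R 4.3.3) was run on log2(FPKM + 1) with a trend, on genes with a mean FPKM of at least 0.5 in the libraries fitted: each tissue alone for auranofin, 16 vehicle libraries for tissues, 16 or 32 for differences between responses. Alternatives were a pseudocount of 0.1, no filter or one at 1, TPM, quantile scaling, library weights, voom on the recovered reads, a replicate block, 1 fit of 32 libraries, auranofin libraries for tissue pairs and leaving out libraries. The main fit of each comparison was also run on simulated data with the same spread for every gene, and the alternatives were not. Genes outside the 10 were named by rule: other clock genes (1 is not reported here), list genes past the threshold, and the 5 protein-coding genes most and least like Arntl and Dbp (mean FPKM of at least 1 in each tissue); list genes named below the threshold were chosen after their values were seen. The members and lists were chosen with earlier results of these data known.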

Additional observations from a re-analysis of the deposited data

Results flagged for a closer look

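In each of the 80 groups of 4 libraries (10 genes, 8 groups) the gap of the highest or lowest library to its neighbour was set against the range of the group, and a gap past Dixon's 95% critical value was marked, which chance gives in about 1 of 20 groups. Only 2 groups had such a gap, both with the same library, liver auranofin library 3. Clock had 2.85 FPKM in it, the lowest, against 4.07 to 4.13 in the other auranofin libraries of liver. Dbp had 33.1 FPKM in it, the highest, against 4.23 to 9.06.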

How the results depend on the processing

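Of 690 log2 differences between auranofin and vehicle under the alternatives, 659 kept their direction and side of the threshold, 13 passed it and 18 changed sign. Of 661 tissue differences, 606 were unchanged in these respects, 51 no longer passed and 4 changed sign. The cause of these changes was not tested, except that leaving libraries out also leaves fewer samples.

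Counts of clock genes past the threshold changed, among others, as follows. With library weights, 8 passed for auranofin in iWAT (46.3% of all genes) and 2 between eWAT and iWAT (55.7%). Weights also gave 6 higher and 2 lower in liver than in eWAT (77.8%), and 4 higher and 2 lower in liver than in BAT (71.5%). In the differences of responses, weights gave 1 for eWAT from iWAT (29.9%) and 1 for iWAT from BAT (33%). A single fit of 32 libraries gave 1 for auranofin in eWAT (6.99% of all genes). Between eWAT and iWAT, the count was 3 on the TPM scale (7524 of all 14339 genes), 2 with quantile scaling (5981) and 2 with voom (6828). In auranofin libraries it was 1 for that pair (10.6% of all genes), 2 between iWAT and BAT (47.5%) and 0 between liver and BAT (61.9%). There 4 were higher and 1 lower in liver than in iWAT (67.9%), and 4 higher and 0 lower in liver than in eWAT (68.6%). Without eWAT vehicle libraries 1 and 2 (chosen after seeing the data for tissue pairs), the white depots differed in 1 clock gene among 6033 genes in all. Between eWAT and BAT it was then 3 among 7364. Leaving out 1 library at a time gave 0 to 4 for auranofin in iWAT (4 without auranofin library 2, with 36.4% of all genes). It gave 0 to 3 for the white depots and 3 to 6 for eWAT and BAT.

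Changes of sign for auranofin were, on the TPM scale in iWAT, Arntl 0.081, Clock 0.16 and Cry1 0.11, with weights Per1 -0.17 and Per2 -0.021 in eWAT and Clock 0.016 and Cry1 0.00089 in liver, and without eWAT vehicle libraries 1 and 2 Per1 -0.099 and Per2 -0.037. Between tissues on the TPM scale they were Nr1d2 0.24 (eWAT from BAT), Cry1 -0.053 (liver from iWAT), and Per2 -0.28 and Nr1d2 -0.0083 (liver from eWAT). Leaving out 1 library gave -0.028 to 0.43 for Per2 in eWAT, -0.014 to 0.39 for Per2 in BAT and, in liver, -0.074 to 0.070 for Clock, -0.21 to 0.088 for Cry1, -0.0055 to 0.14 for Nr1d2 and -0.11 to 0.79 for Dbp.

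With the replicate number as a block, 3 clock genes passed between eWAT and iWAT (45.7% of all genes). For auranofin, 0 passed in any tissue (0% of all genes in each). Deviations of same-numbered vehicle and auranofin libraries of a tissue correlated over 0.1 in 7 of 16 pairs (-0.217 to 0.402), and across tissues in 9 of 24 vehicle pairs and 6 of 24 auranofin pairs, so the numbers were not taken as pairing.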
